A study of Homo sapiens with 4 samples.

Results

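TXNIP, the alpha-arrestins ARRDC1, ARRDC2, ARRDC3 and ARRDC4, and the transcription factor genes MLXIP (MondoA), MLXIPL (ChREBP) and MLX were followed through 4 RNA-seq libraries of prostate cancer cells. They were taken by symbol and make up 8 of 60617 gene IDs, each found on 1 row. TXNIP was chosen by its FPKM with and without morusin, because it was lower with morusin in both cell lines, so its changes are a description with no test. The relatives and regulators were added by gene family. Morusin is a prenylated flavone of mulberry root bark. The libraries came from 22Rv1 cells with 75 µM morusin, 22Rv1 cells without it, PC3 cells with 46 µM morusin and PC3 cells without it, 1 library each, and the treatment lasted 6 h. 22Rv1 is a xenograft-derived prostate carcinoma line, and PC3 is a line from a prostate adenocarcinoma that had spread to bone. 22Rv1 was grown in RPMI and PC3 in F12, both with serum, so line, medium and dose cannot be told apart. With 1 library a group, a difference within a line has no replicate check and no p-value. Levels are in FPKM, fragments per kilobase of transcript scaled to a library's mapped total. A change is the log2 ratio of FPKM + 1, treated over untreated. Genes were counted in a line where either library reached 1 FPKM. Fewer cells carrying an mRNA and less mRNA per cell cannot be told apart in bulk RNA either.

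The libraries were estimated to hold 19.1 M (mega) read pairs in treated 22Rv1, 23.5 M in untreated 22Rv1, 28.7 M in treated PC3 and 40.6 M in untreated PC3. The estimates are approximate, because they rest on 57 to 81 values per library at the step taken as 1 pair. A smaller step also held 41 to 59 values per library, so which step stands for 1 pair is uncertain. All pair numbers and counting errors below carry that uncertainty. All 6 markers listed for PC3 exceeded 1 FPKM in both PC3 libraries, with a summed level of 4135 FPKM in treated and 3595 in untreated PC3. In 22Rv1 their sum was 45.5 FPKM in the treated and 30.3 in the untreated library. Of 14 leukocyte, fibroblast and endothelial markers, 1 reached 1 FPKM in each 22Rv1 library and 3 in each PC3 library. Their summed level was 3.66 FPKM in treated and 3.52 in untreated 22Rv1, and 43.4 FPKM in treated and 31.6 in untreated PC3. Most of the PC3 sum was CD68, at 39.9 FPKM in treated and 26.0 in untreated PC3, which is also a general lysosomal gene. The other markers at 1 FPKM in PC3 were COL1A1, a fibroblast collagen, at 1.29 FPKM in treated and 3.01 in untreated PC3, and PECAM1, an endothelial adhesion gene, at 1.02 FPKM in treated and 1.07 in untreated PC3. The endothelial receptor gene KDR was at 0.554 FPKM in treated and 0.706 in untreated PC3, while CD3E of T cells and the endothelial genes VWF and CDH5 were listed at 0 in both PC3 libraries. The part of these markers in the results was not tested.

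Alpha-arrestins are membrane-linked adaptors that recruit NEDD4-type ubiquitin ligases to transporters and receptors and so send them for endocytosis. TXNIP also binds thioredoxin and helps to remove glucose transporters from the cell surface. MondoA and ChREBP pair with MLX, respond to phosphorylated hexoses and bind carbohydrate response elements, with TXNIP and ARRDC4 as their best known targets. In this way the TXNIP mRNA level serves as a readout of sugar supply in many cells, and TXNIP is described as low in many tumours.

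The DNA just upstream of TXNIP, ARRDC4 and ARRDC3 is shown because the first pair shares a known regulator and ARRDC3 stood apart from them. Each window is the 250 bases before an annotated start, from RefSeq on GRCh38.p14, read 5′ to 3′ along the gene's strand. TXNIP lies on the minus strand, and the window of its upstream start, at chr1:145996580-145996829, is shown. ARRDC4 lies on the plus strand at chr15:97960453-97960702, and ARRDC3 on the minus strand with windows at chr5:91383318-91383567 for its upstream start and chr5:91380098-91380347 for its downstream start. Capitals mark matches on either strand to CACGNG repeated after any 5 bases (a paired carbohydrate response element), CACGTG (the E box), GTAAACA (a FOXO site) and TGANTCA (an AP-1 site). CCAAT matches are left in lower case.
TXNIP upstream start: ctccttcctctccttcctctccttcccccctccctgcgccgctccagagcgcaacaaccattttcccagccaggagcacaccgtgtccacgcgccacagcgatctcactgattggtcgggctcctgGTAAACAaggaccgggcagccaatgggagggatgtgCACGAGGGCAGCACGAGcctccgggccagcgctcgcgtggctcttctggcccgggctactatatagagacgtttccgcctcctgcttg
ARRDC4: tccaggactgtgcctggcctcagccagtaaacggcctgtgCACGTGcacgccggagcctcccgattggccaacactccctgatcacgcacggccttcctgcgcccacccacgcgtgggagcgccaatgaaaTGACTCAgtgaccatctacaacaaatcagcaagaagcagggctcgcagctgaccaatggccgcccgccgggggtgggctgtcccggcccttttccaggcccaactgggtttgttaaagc
ARRDC3 upstream start: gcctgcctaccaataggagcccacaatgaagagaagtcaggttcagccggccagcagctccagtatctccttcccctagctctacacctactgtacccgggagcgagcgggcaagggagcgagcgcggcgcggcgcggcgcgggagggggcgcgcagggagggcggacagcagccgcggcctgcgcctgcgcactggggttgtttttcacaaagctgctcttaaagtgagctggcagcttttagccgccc
ARRDC3 downstream start: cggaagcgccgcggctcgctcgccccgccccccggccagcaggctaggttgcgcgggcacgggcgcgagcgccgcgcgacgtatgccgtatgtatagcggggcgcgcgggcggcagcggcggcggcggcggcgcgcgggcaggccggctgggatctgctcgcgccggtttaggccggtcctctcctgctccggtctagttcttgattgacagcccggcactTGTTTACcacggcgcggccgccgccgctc

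The window of the upstream TXNIP start held the paired element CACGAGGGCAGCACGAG from base -88 to base -72, counted back from the start. Among the 8 genes TXNIP was the only one with that match, and 16 of 35116 RefSeq windows of the same length held it (0.0456%). The pattern was chosen after the data were seen, so the TXNIP match and the share are a description. The search took only this 1 pattern for the element. A missing match, as for ARRDC4, therefore does not show that a gene lacks a carbohydrate response element. The TXNIP window also held a FOXO match from -124 to -118 and CCAAT matches starting at -140 and -105. A second annotated TXNIP start lies downstream, and its window, at chr1:145995745-145995994, held no match to any motif searched. ARRDC4 had an E box from -210 to -205, an AP-1 match from -119 to -113 and 3 CCAAT matches. E boxes were in 6.34% of all windows, AP-1 matches in 6.57%, FOXO matches in 2.98% and CCAAT in 32.0%. MLX had an E box from -50 to -45, and MLXIP had the cAMP response element TGACGTCA from -57 to -50, found in 1.65% of all windows. The downstream start of ARRDC3 had a FOXO match from -29 to -23, overlapping no other motif searched. GAANNTTC, a heat shock element pair, was in none of the windows of the 8 genes and in 5.78% of all windows. These are letter matches and were not tested for binding.

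**Figure D1:**
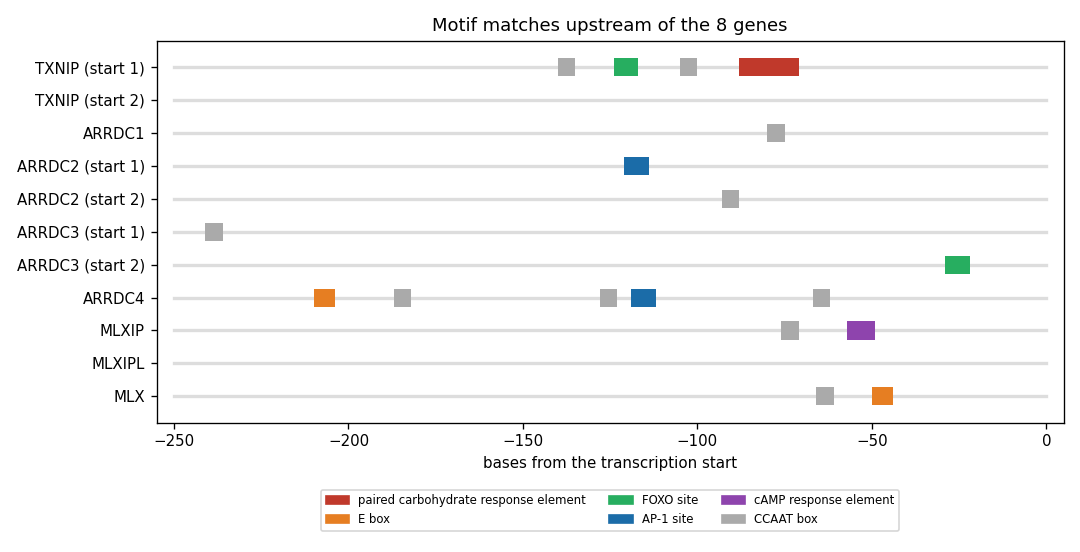
Positions of motif matches (coloured blocks, either strand) in the 250 bases before each annotated start of the 8 genes, with the start at 0 on the horizontal axis and 1 row per start. The paired carbohydrate response element appears in the row of the upstream TXNIP start alone, at -88 to -72.

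TXNIP (ENSG00000265972, chr1:145992435-145996600, minus strand, GRCh38) mRNA was lower with morusin in both lines. In 22Rv1 it stood at 13.9 FPKM with morusin against 38.2 FPKM without, on about 777 and 2624 read pairs. In PC3 it stood at 4.38 FPKM with morusin against 15.1 FPKM without, on about 367 and 1787 pairs. The treated libraries thus held 36.4% of the untreated level in 22Rv1 and 29.1% in PC3. The log2 changes of FPKM + 1 were -1.40 and -1.58, with counting errors of 0.059 and 0.083. TXNIP was the 31st lowest change of 13337 genes in 22Rv1 and the 47th lowest of 12898 in PC3. In 22Rv1 1.02% of genes were at least 2-fold lower and 4.42% passed 2-fold in either direction, and in PC3 2.64% and 3.86%. The lines' changes differed by 0.18 (22Rv1 minus PC3). Of 11235 genes measured in both lines, 35 (0.312%) were at least 2-fold lower in both, of which 18 were protein-coding, and 0.481% were at least 2-fold higher in both. Among these 18, by the sum of both changes, TXNIP, at -2.97, came behind only the mitochondrial gene MT-ND6 (-4.46) and the S-adenosylmethionine synthase gene MAT2A (-3.01), and just ahead of SOCS7 (-2.96). For the TXNIP transcript of 2926 bases, the trend of change on transcript length amounted to -0.01 in 22Rv1 and -0.05 in PC3.

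**Figure D2:**
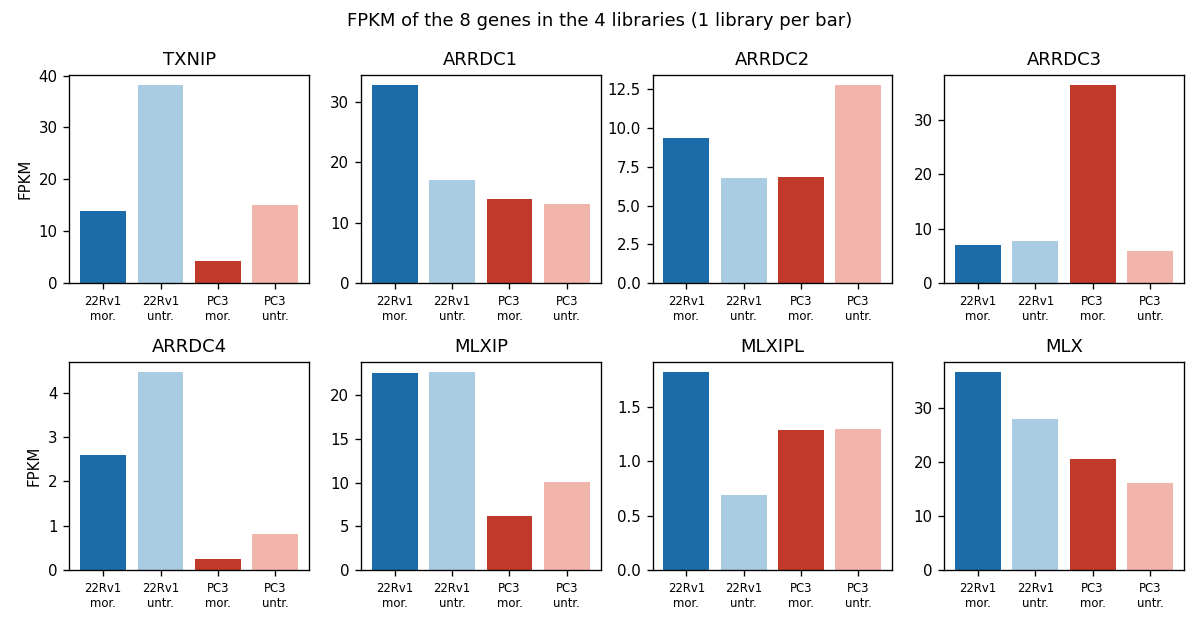
FPKM of each of the 8 genes (vertical axes from 0, separate scales) in treated and untreated 22Rv1 and PC3, with 1 library per bar and no error bars. TXNIP and ARRDC4 were lower in the treated library of both lines, ARRDC3 stood out at 36.4 FPKM in treated PC3, and MLX was higher in the treated library of both lines.

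ARRDC4 (ENSG00000140450, chr15:97960698-97973838, plus strand), a close relative of TXNIP that also limits glucose uptake, was lower in both treated libraries but at low levels. In 22Rv1 it was at 2.60 FPKM with morusin against 4.47 FPKM without, a log2 change of -0.60, with a counting error of 0.12. In PC3 it was at 0.264 FPKM with morusin against 0.821 FPKM without, on about 31 and 136 pairs, and so lay under the level of 1 FPKM required for the PC3 counts. The added 1 shrinks a change at such levels. The PC3 ratio without it was -1.64 on the log2 scale with a counting error of 0.29, against -0.53 with it and -1.34 with a pseudocount of 0.1. ARRDC4 thus had 58.1% of its untreated FPKM in treated 22Rv1 and 32.1% in treated PC3.

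ARRDC3 (ENSG00000113369, chr5:91368724-91383359, minus strand), an adaptor that sends the beta-2 adrenergic receptor and integrin beta-4 to lysosomes, stood apart from TXNIP in PC3. It was at 36.4 FPKM in treated PC3 against 6.01 FPKM in untreated PC3, on about 4369 and 1021 pairs. In 22Rv1 it was at 6.99 FPKM with morusin and 7.71 without. Treated PC3 was the single high library, and the other 3 lay between 6.01 and 7.71 FPKM. The PC3 change of 2.42 (counting error 0.050), or 5.34-fold on the FPKM + 1 scale, was the 31st highest of 12898 genes, of which 1.22% were at least 2-fold higher. The 22Rv1 change was -0.12, with a counting error of 0.080, and 0.05 once the length trend was removed. The gap between the lines, -2.54 (22Rv1 minus PC3), was the 12th most PC3-sided of 11235 genes. ARRDC3-AS1, a noncoding gene on the other strand, overlaps 3011 bases of the ARRDC3 locus, and reads of the overlap cannot be told apart without strand. It was at 0.788 FPKM in treated and 1.01 in untreated PC3.

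ARRDC2 (ENSG00000105643, chr19:18001132-18014102, plus strand), less studied than the others, had opposite directions in the lines. It was at 9.35 FPKM in treated and 6.77 in untreated 22Rv1, a log2 change of 0.41, and at 6.86 FPKM in treated and 12.8 in untreated PC3, a change of -0.81. Neither reached 2-fold. The gap of 1.22 (22Rv1 minus PC3) was the 160th most 22Rv1-sided of 11235 genes. ARRDC1 (ENSG00000197070, chr9:137605654-137615360, plus strand) recruits TSG101 and drives the budding of vesicles from the plasma membrane. It was at 32.8 FPKM in treated 22Rv1 against 17.1 in untreated 22Rv1, a change of 0.91 (counting error 0.073), and at 14.0 FPKM in treated against 13.2 in untreated PC3, a change of 0.08 (counting error 0.076). Its transcript is short, at 1586 bases, and the trend on length made up 0.28 of the 22Rv1 change, leaving 0.63. In PC3 the small change turned to -0.03 when the trend was removed. ARRDC1-AS1 overlaps ARRDC1 by 29 bases and was at 9.54 FPKM in treated and 8.78 in untreated 22Rv1. ARRDC5, an ARRDC gene outside the 8, was listed at 0 in all 4 libraries.

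Summed over TXNIP and ARRDC1 to ARRDC4, alpha-arrestin mRNA was 65.7 FPKM in treated against 74.2 in untreated 22Rv1, and 61.9 FPKM in treated against 47.8 in untreated PC3. The make-up differed more than the sum. TXNIP held 21.2% of the sum in treated 22Rv1 against 51.5% in untreated 22Rv1, while ARRDC1 held 50.0% in the treated library against 23.0% in the untreated one. In PC3, TXNIP held 7.08% in the treated library against 31.5% in the untreated one, and ARRDC3 held 58.9% in the treated library against 12.6% in the untreated one. The leading alpha-arrestin was therefore TXNIP in both untreated libraries, ARRDC1 in treated 22Rv1 and ARRDC3 in treated PC3. ARRDC3 stood at 8.31 times the TXNIP level in treated PC3 and 0.40 times in untreated PC3. ARRDC4 was the lowest of the 5 in every library, with 0.426% to 6.02% of the sum.

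**Figure D3:**
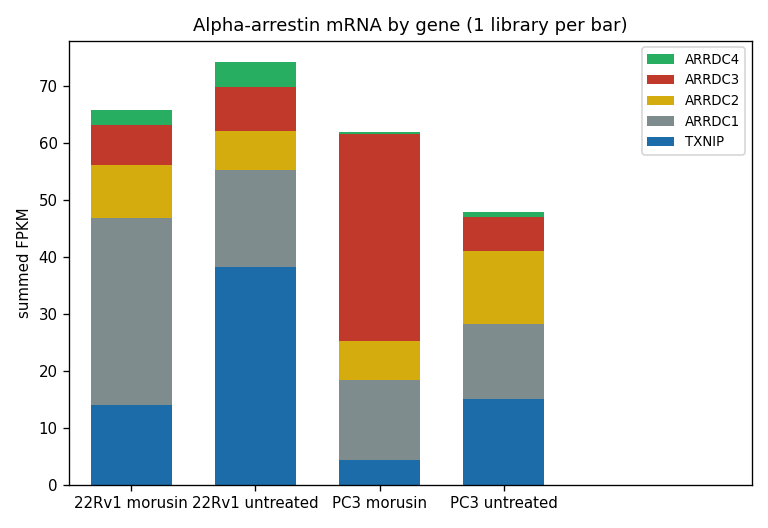
Summed FPKM of 5 alpha-arrestin genes (vertical axis) in each of the 4 libraries, 1 bar per library, split by gene. TXNIP is the largest block in both untreated libraries, ARRDC1 in treated 22Rv1 and ARRDC3 in treated PC3.

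On the FPKM + 1 scale, the regulators differed less than TXNIP, by under 2-fold in each line. MLX (ENSG00000108788, chr17:42567068-42573239, plus strand), the obligate partner of MondoA and ChREBP, was higher in both treated libraries, at 36.8 FPKM in treated and 28.0 in untreated 22Rv1 and at 20.5 FPKM in treated and 16.1 in untreated PC3. Its log2 changes were 0.38 and 0.33, with counting errors of 0.049 and 0.051. PSMC3IP, which overlaps MLX by 925 bases on the other strand, had changes of 0.42 in 22Rv1 and 0.22 in PC3, and without strand the reads of the overlap cannot be told apart. MLXIP (ENSG00000175727, chr12:122078722-122147347, plus strand), the gene for MondoA, was at 22.5 FPKM in treated and 22.7 in untreated 22Rv1, and at 6.20 FPKM in treated and 10.0 in untreated PC3, with changes of -0.01 and -0.62. Its transcript, at 8427 bases, is the longest of the 8, and long transcripts were lower on the whole in both treated libraries. With the length trend removed, the MLXIP changes were 0.42 in 22Rv1 and -0.31 in PC3. MLXIPL (ENSG00000009950, chr7:73593194-73624543, minus strand), the gene for ChREBP, was low throughout. It was at 1.83 FPKM in treated and 0.690 in untreated 22Rv1, on about 114 and 53 pairs, and at 1.29 FPKM in both PC3 libraries. It entered the 22Rv1 comparison through the treated library alone, with a change of 0.74 and 1.29 with a pseudocount of 0.1. Without the added 1 its 22Rv1 log2 ratio was 1.41 (counting error 0.24), in size near the -1.46 of TXNIP. The MLXIPL change in PC3 was -0.00. MLXIP exceeded MLXIPL 12.3 times in treated and 32.9 times in untreated 22Rv1, and 4.80 times in treated and 7.75 times in untreated PC3. MLX exceeded MLXIP in every library, 1.63 and 1.23 times in treated and untreated 22Rv1 and 3.32 and 1.61 times in treated and untreated PC3.

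**Figure D4:**
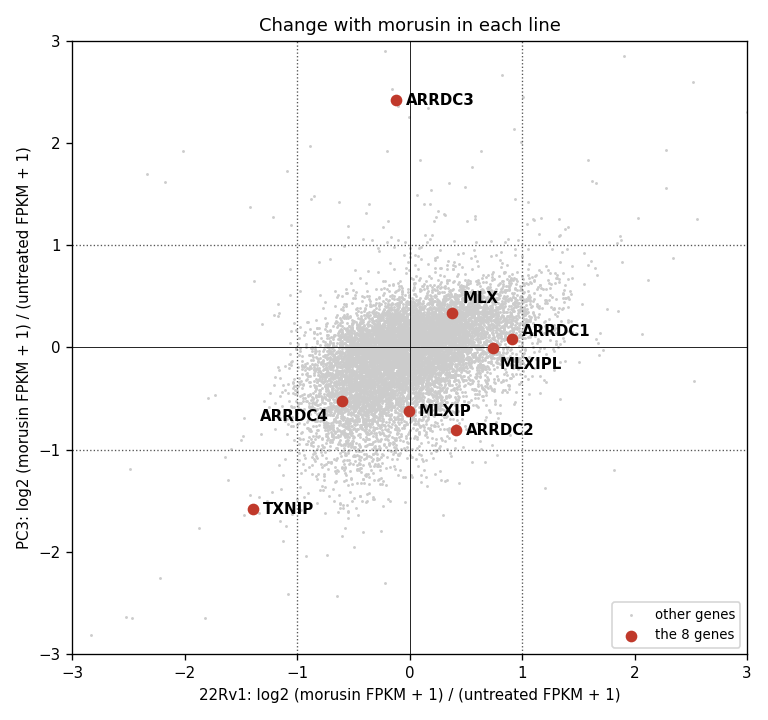
Log2 change with morusin in 22Rv1 (horizontal) and in PC3 (vertical) for 11235 genes measured in both lines (grey) and the 8 genes (red), with dotted lines at 2-fold, and 44 genes outside the axes. ARRDC4 is drawn although it lay under 1 FPKM in both PC3 libraries. TXNIP lies past 2-fold lower in both lines, ARRDC3 past 2-fold higher in PC3 alone, and the others inside the 2-fold lines.

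TXNIP was at least 2-fold lower in both lines, but it was chosen for its fall there and is left out of the following counts. On the FPKM + 1 scale, none of the other 7 genes was at least 2-fold lower or higher in 22Rv1. Of all genes there, 1.02% were lower and 3.4% higher. In PC3, where ARRDC4 was not measured, none of the others was at least 2-fold lower and ARRDC3 alone at least 2-fold higher, against 2.64% and 1.22%. A shared response across both lines was examined by limma, with the line as a block, for the 7 genes other than TXNIP. None had an adjusted p under 0.05 in this fit, in which 0.329% of 13971 genes were called higher and 0.236% lower. The ± values are SEs of the limma fit, whose variance is drawn toward a trend over all genes. They are not the spread of the 2 lines. ARRDC4 had a shared log2 change of -0.57 ± 0.18 and an adjusted p of 0.169 by limma, lower in both lines. It entered the fit through its 22Rv1 libraries alone, since both PC3 libraries were under 1 FPKM, so this p is no support for a shared response. ARRDC3 had 1.15 ± 0.47 (limma adjusted p = 0.245), higher in 1 of 2 lines, with changes of -0.12 in 22Rv1 and 2.42 in PC3. ARRDC1 had 0.49 ± 0.24 (limma adjusted p = 0.309), higher in both lines. MLX was at 0.36 ± 0.19 (limma adjusted p = 0.349), higher in both lines. The other 3 had limma adjusted p of 0.374 for MLXIPL, 0.485 for MLXIP and 0.754 for ARRDC2. Without adjustment, 2587 of 13971 genes had a limma p under 0.05, ARRDC3 and ARRDC4 among them. So many genes had such a p that it does not set these 2 apart. With libraries scaled to equal FPKM sums, both had an adjusted p under 0.05, at 0.0113 for ARRDC3 and 0.0264 for ARRDC4 by limma. That scaling called 311 genes higher and 1283 lower of 13971. Under it ARRDC3 had changes of -0.30 in 22Rv1 and 2.34 in PC3, opposite in sign, so its call rested on PC3.

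Without treatment the lines also differed. Untreated 22Rv1 exceeded untreated PC3 in TXNIP, at 38.2 FPKM in 22Rv1 against 15.1 in PC3 (log2 ratio of FPKM + 1, 1.29), in ARRDC4, at 4.47 FPKM in 22Rv1 against 0.821 in PC3 (1.59), and in MLXIP, at 22.7 FPKM in 22Rv1 against 10.0 in PC3 (1.10). These 3 were at least 2-fold higher in 22Rv1, as were 19.8% of 14352 genes, while 19.2% were at least 2-fold lower. MLXIP fell under 2-fold with median centring (0.998) and with a pseudocount of 5 (0.88), and ARRDC4 with a pseudocount of 5 (0.70). TXNIP was at 1.11 with a pseudocount of 5 and 1.18 with median centring. ARRDC2 was at 6.77 FPKM in untreated 22Rv1 against 12.8 in untreated PC3 (-0.82), MLX at 28.0 FPKM in 22Rv1 against 16.1 in PC3 (0.76), and ARRDC1 at 17.1 FPKM in 22Rv1 against 13.2 in PC3 (0.35). ARRDC3 was at 7.71 FPKM in 22Rv1 against 6.01 in PC3 (0.31), and MLXIPL at 0.690 FPKM in 22Rv1 against 1.29 in PC3 (-0.44). The order of levels in untreated 22Rv1 was TXNIP, MLX, MLXIP, ARRDC1, ARRDC3, ARRDC2, ARRDC4 and MLXIPL. In untreated PC3 it was MLX, TXNIP, ARRDC1, ARRDC2, MLXIP, ARRDC3, MLXIPL and ARRDC4. With 1 library each, the spread that would separate neighbours in these orders is unknown.

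Other genes with the paired element in their upstream window are given as a group. Of 15 such genes besides TXNIP, 11 were measured in 22Rv1 and 12 in PC3. None was at least 2-fold lower in either line, and 2 were at least 2-fold higher in 22Rv1 (MYL5, a myosin light chain, at 1.21, and ATP5ME, an ATP synthase subunit, at 1.13). Over all genes, 1.02% were at least 2-fold lower and 3.4% higher in 22Rv1, and 2.64% lower in PC3. So 0 lower among 11 and 12 genes is no result about them. With the trend on transcript length removed, genes at least 2-fold higher in 22Rv1 numbered 297 in place of 453. The part of that trend in the 2 higher genes was not tested. The median change of the 11 and 12 genes was 0.07 in 22Rv1 and 0.14 in PC3, beside -0.01 and -0.05 over all genes measured. The lowest of them in both lines, named like MYL5 and ATP5ME after the values were seen, was GFPT1, the entry enzyme of the hexosamine pathway, at 8.06 FPKM in treated and 12.4 in untreated 22Rv1 and at 7.81 FPKM in treated and 15.6 in untreated PC3, with changes of -0.56 and -0.91. POLR3GL, a protein-coding gene 13587 bases from TXNIP toward lower coordinates, was at 8.37 FPKM in treated and 4.52 in untreated 22Rv1 and at 12.2 FPKM in treated and 12.3 in untreated PC3. On the other side, 68099 bases away, NBPF10 of a multigene family was at 2.58 FPKM in treated and 4.19 in untreated 22Rv1 and at 3.36 FPKM in treated and 9.10 in untreated PC3, values that reads shared with its copies make uncertain.

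Genes of the wider sugar-sensing pathway were described by their counts. Of 24 listed MondoA and ChREBP targets besides TXNIP and ARRDC4, 15 were measured in each line. In 22Rv1 none reached 2-fold and 10 were below 0, as were 50.7% of all genes (median -0.38, beside -0.01 over all genes). In PC3, 3 of 15 were at least 2-fold lower, beside 2.64% of all genes, and none higher. There 9 of 15 were below 0, near the 55.8% of all genes (median -0.16, beside -0.05). The 3 were ACACA, which makes malonyl-CoA for fatty acid synthesis, at 4.19 FPKM in treated against 10.4 in untreated PC3, PFKFB2, which sets fructose 2,6-bisphosphate, at 4.11 FPKM in treated against 10.2 in untreated PC3, and FASN, fatty acid synthase, at 16.6 FPKM in treated against 35.8 in untreated PC3. Their PC3 changes were -1.14 for ACACA, -1.13 for PFKFB2 and -1.07 for FASN, near the 2-fold line. In 22Rv1 their changes were -0.74 for ACACA, -0.70 for PFKFB2 and -0.36 for FASN. Their transcripts are long, at 9961 bases for ACACA, 7094 for PFKFB2 and 8565 for FASN. The PC3 trend on length amounted to -0.31 at the 8427 bases of MLXIP, and its part in these 3 changes was not tested. With the trend removed, genes at least 2-fold lower in PC3 numbered 194 in place of 340. In the shared fit none of the 3 was called, with limma adjusted p from 0.113 to 0.157. ACACA, FASN, ACLY, ELOVL6 and SCD are also targets of sterol-responsive factors.

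Glucose transporter and hexose-phosphorylating genes had no member at 2-fold, of 9 measured in 22Rv1 and 8 in PC3 (medians -0.01 and -0.06). SLC2A1, which encodes the transporter GLUT1 that TXNIP removes from the surface, was at 7.67 FPKM in treated and 3.85 in untreated PC3 (0.84), and at 14.4 FPKM in treated and 14.5 in untreated 22Rv1 (-0.01). HK2, TXN, FOXO1 and NLRP3 are named for their role, after the values were seen. The hexokinase gene HK2 was at 13.5 FPKM in treated and 18.3 in untreated 22Rv1 and at 13.6 and 15.3 FPKM in treated and untreated PC3. Thioredoxin system genes also had no member at 2-fold, of 20 and 22 measured, with medians of 0.28 in 22Rv1 and 0.02 in PC3. Their transcripts ran from 869 bases for TXN to 6894 for TXNL1. The 22Rv1 trend on length amounted to 0.28 at the 1586 bases of ARRDC1 and -0.43 at the 8427 bases of MLXIP. Its part in the thioredoxin median was not tested. TXN, the thioredoxin that TXNIP binds, was at 164 FPKM in treated and 111 in untreated 22Rv1 (0.56) and at 119 FPKM in treated and 107 in untreated PC3 (0.15). TXNRD1, the reductase that recharges it, was at 33.9 FPKM in treated and 61.1 in untreated 22Rv1 (-0.83) and at 288 FPKM in treated and 333 in untreated PC3 (-0.21).

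**Figure D5:**
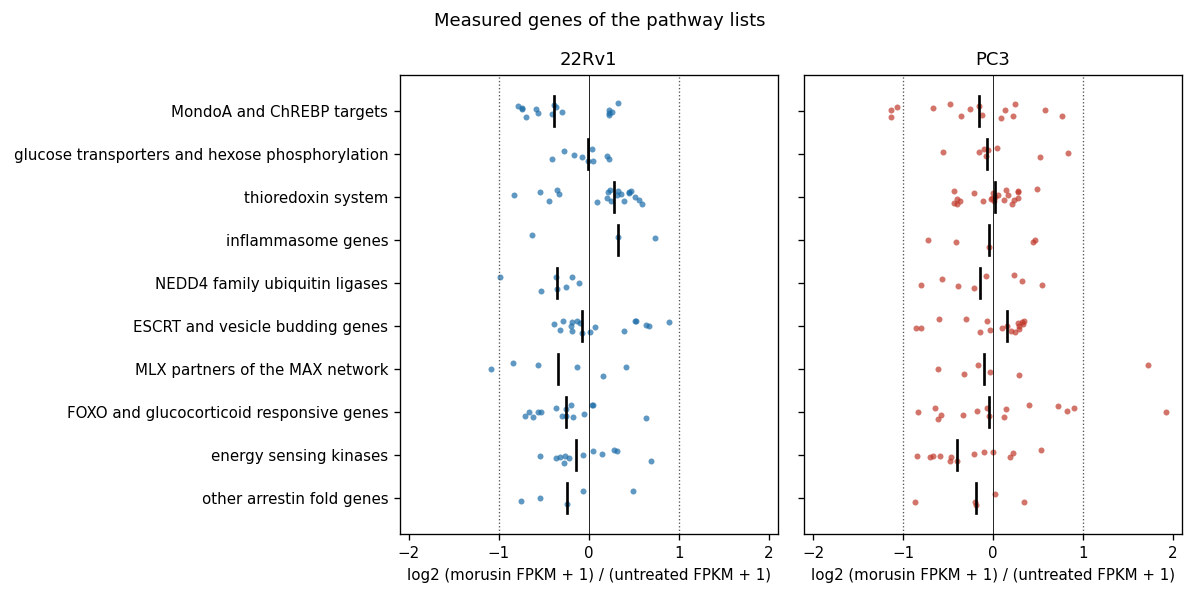
Log2 change with morusin (horizontal axes) of each measured gene (points) of 10 pathway lists in 22Rv1 (left) and PC3 (right), with black bars at list medians and dotted lines at 2-fold. Few points lie past 2-fold, with 3 MondoA and ChREBP targets lower and MYC and GADD45A higher in PC3, and MYC lower in 22Rv1.

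NEDD4 family ligases, the partners of alpha-arrestins, were below 0 for 7 of 7 measured in 22Rv1 (median -0.35) and 5 of 8 in PC3 (median -0.14). None was at 2-fold on the FPKM + 1 scale. Of all genes, 50.7% were below 0 in 22Rv1 and 55.8% in PC3. Transcripts of the 7 ran from 2918 bases for SMURF2 to 8436 for NEDD4L. The 22Rv1 trend on length amounted to -0.01 at the 2926 bases of TXNIP and -0.43 at the 8427 bases of MLXIP. Its part in the ligase median was not tested. ITCH, which also degrades TXNIP protein, was at 7.93 FPKM in treated against 16.7 in untreated 22Rv1 (-0.99) and at 31.3 FPKM in treated against 33.1 in untreated PC3 (-0.08). ESCRT genes, which work with ARRDC1 in budding, had medians of -0.08 and 0.16 over 17 genes, and the largest change was CHMP4A, at 49.4 FPKM in treated against 26.1 in untreated 22Rv1 (0.89) and 15.8 FPKM in treated against 19.7 in untreated PC3 (-0.30). Among 6 genes of the MAX network that meets MondoA through MLX, the medians were -0.35 and -0.10. MYC alone reached 2-fold, in opposite directions, at 69.6 FPKM in treated against 149 in untreated 22Rv1 (-1.09) and 219 FPKM in treated against 65.7 in untreated PC3 (1.72). This is 1 of 6 genes in each line, beside 1.02% of all genes lower in 22Rv1 and 1.22% higher in PC3. FOXO and glucocorticoid responsive genes, a class that often includes TXNIP and ARRDC3, had medians of -0.26 and -0.04 over 15 genes in each line. On the FPKM + 1 scale GADD45A alone reached 2-fold, 1 of 15 in PC3 beside the 1.22% of all genes. GADD45A was at 90.2 FPKM in treated against 23.1 in untreated PC3 (1.92). In 22Rv1 it was at 11.2 FPKM in treated against 6.83 in untreated cells (0.64). Without the added 1, other genes of this list also passed 2-fold in PC3. SESN1 (log2 ratio -1.60), KLF9 (-1.47) and TRIB2 (-1.07) were lower, and PDK4 (1.10) and PER1 (1.05) higher. FOXO1, a factor of that class, was at 1.48 FPKM in treated and 1.58 in untreated 22Rv1 and at 2.55 and 2.26 FPKM in treated and untreated PC3.

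Energy sensing kinase genes, including AMPK subunits, which promote the loss of TXNIP protein, had no member at 2-fold and medians of -0.14 in 22Rv1 and -0.40 in PC3. RPTOR, a subunit of mTORC1, was at 13.3 FPKM in treated against 24.8 in untreated PC3 (-0.85) and at 7.17 FPKM in treated against 9.53 in untreated 22Rv1 (-0.37). Of 11 inflammasome genes, which TXNIP protein can engage, 3 were measured in 22Rv1 and 5 in PC3, none at 2-fold. The others lay under 1 FPKM. The 5 in PC3 were NEK7, CASP4, IL1B, IL18 and GSDMD. They ran from 6.49 FPKM (NEK7) to 40.1 (GSDMD) in treated and from 11.4 (NEK7) to 53.7 (GSDMD) in untreated PC3. NLRP3, the sensor TXNIP binds, was listed at 0 in both 22Rv1 libraries and was at 0.032 FPKM in treated and 0.085 in untreated PC3. NLRP1 was at 8.35 FPKM in treated and 4.61 in untreated 22Rv1 (0.74). Other arrestin-fold genes also had no member at 2-fold on the FPKM + 1 scale, of 5 measured, with medians of -0.24 and -0.19. ARRB1, a beta-arrestin of G protein-coupled receptors, was at 2.40 FPKM in treated against 5.22 in untreated PC3 (-0.87) and at 6.96 FPKM in treated against 10.6 in untreated 22Rv1 (-0.54).

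The genes whose changes in both lines lay nearest to those of TXNIP were SOCS7, MT-ND1, ZKSCAN1, CBX5, BRI3BP and HIPK2. Nearness was the Euclidean distance of log2(FPKM + 1) centred within each line. It was taken over 9932 protein-coding genes with at least 5 FPKM in at least 1 library. Centring leaves only the change within each line, by which TXNIP was chosen, so the list is a description. Apart from the 5 FPKM filter and the added 1, levels in the 2 lines play no part in it. The distances ran from 0.046 for SOCS7 to 0.22 for HIPK2. SOCS7, a suppressor of cytokine signalling, was at 8.07 FPKM in treated against 22.0 in untreated 22Rv1 and 1.19 FPKM in treated against 5.70 in untreated PC3. HIPK2, a nuclear kinase, was at 7.05 FPKM in treated against 16.7 in untreated 22Rv1 and 11.3 FPKM in treated against 31.3 in untreated PC3. CBX5 encodes a heterochromatin protein, at 37.6 FPKM in treated against 88.9 in untreated 22Rv1 and at 5.45 FPKM in treated against 16.2 in untreated PC3.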

How the data were processed

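Per the labels, RNA of 4 samples was made into libraries with an Illumina TruSeq kit and read as paired ends. Trimmomatic, HISAT2, StringTie and GRCh38 stand in the submitters' processing notes, with no versions. The authors deposited FPKM for 60617 Ensembl gene IDs. Each value is relative to its library's total, and as these are no counts a count model was not fitted. Annotation release and strand setting: not given in the sources used here.

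Symbols were looked up for 60261 of the IDs, and where 72 symbols stood on several rows that of highest mean was kept. All 8 genes had 1 row each. Positions and transcript lengths came from GENCODE 29 on GRCh38. A transcript length was found for 99.6% of the genes compared in 22Rv1 and 99.7% in PC3.

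Changes are log2 of (morusin FPKM + 1) over (untreated FPKM + 1) where either library of the line reached 1 FPKM, and 2-fold was the size counted. The shared response was fitted with limma 3.58.1 in R 4.3.3 on log2(FPKM + 1) by line and treatment (prior variance with a trend on the mean), for genes reaching 1 FPKM in at least 2 libraries, and Benjamini-Hochberg adjustment at 0.05. The cell line pairs the libraries by the labels. The fit was tested on simulated data, with noise of SD 0.25 on the log2 scale and the same effect in both lines. It called 32 of 40 genes with an effect of 1 and 13 of 13771 with none. Responses that differ between the lines were not simulated, so the run does not show how the fit handles them.

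Read pairs were estimated from the steps between low values in genes with a single exon and 600 to 5000 bases (tolerance 1.5%). Counting errors refer to log2 ratios with no pseudocount and hold nothing but counting error.

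The 8 genes, the gene lists and the tests were chosen with earlier results of these data known. The motifs were chosen after the data were seen. Named list genes were the members at least 2-fold changed in either line, at most 4 per list, or else the member with the largest change. Python 3.11.15 with numpy 2.4.6, pandas 2.3.3, statsmodels 0.14.6 and matplotlib 3.10.9 was used. Alternatives were pseudocounts of 0.1 and 5, equal FPKM sums, median centring, removal of a trend on transcript length, no filter, a size of 1.5-fold, and for limma no block and no variance trend. A marker check of the 22Rv1 label is not reported here. MT-ND6 and MAT2A were named after their values were seen, and neighbouring and overlapping genes were named by position.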

Additional observations from a re-analysis of the deposited data

Results flagged for a closer look

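Direction differed between the lines, with no test of the difference because each group is 1 library, for 3 of the 8 genes. ARRDC3 had log2 changes of -0.12 in 22Rv1 and 2.42 in PC3, the first of these within 2 counting errors of 0. ARRDC2 had changes of 0.41 in 22Rv1 and -0.81 in PC3, and MLXIPL of 0.74 in 22Rv1 and -0.0020 in PC3, the PC3 value being far inside its counting error of 0.17. Among the pathway genes named, MYC had changes of -1.09 in 22Rv1 and 1.72 in PC3, CHMP4A of 0.89 in 22Rv1 and -0.30 in PC3, and SLC2A1 of -0.014 in 22Rv1 and 0.84 in PC3, the 22Rv1 value of SLC2A1 being far inside its counting error of 0.061. Dose and medium moved with the line, and their part in these gaps was not tested.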

How the results depend on the processing

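TXNIP stayed at least 2-fold lower in both lines under all 5 alternatives (both pseudocounts, equal sums, median centring, length trend removed), and ARRDC3 at least 2-fold higher in PC3 (1.91 to 2.58). In 22Rv1 the TXNIP change was -1.19 with a pseudocount of 5 and -1.58 with equal FPKM sums. In PC3 it was -1.76 with a pseudocount of 0.1 and -1.10 with 5. Genes at least 2-fold higher in 22Rv1 (453) numbered 827 with a pseudocount of 0.1, 150 with 5, 244 with equal sums, 297 with the length trend removed and 1787 at 1.5-fold. Those lower in 22Rv1 (136) numbered 376, 33, 351 with equal sums and 1312 at 1.5-fold. In PC3, 158 higher became 257, 73 and 461 at 1.5-fold, and 340 lower became 679, 85, 194 with the length trend removed and 1458 at 1.5-fold. Equal sums moved the median of all genes to -0.18 in 22Rv1 and -0.14 in PC3. The shared test's 46 higher and 33 lower genes became 18 and 15 with a pseudocount of 5, 311 and 1283 with equal sums, and 0 and 0 with no filter. With no replicate block, 0 and 0 genes were called, and with no variance trend 27 higher. With equal sums, where ARRDC3 had opposite signs in the lines, ARRDC3 (limma adjusted p = 0.0113) and ARRDC4 (limma adjusted p = 0.0264) passed. Over the other alternatives with a block their adjusted p reached 0.698 for ARRDC3 and 0.657 for ARRDC4, and without one it was close to 1. The shared MLXIP change was 0.059 in place of -0.31 with the length trend removed. ARRDC3 and MLXIP in 22Rv1, and ARRDC1 and MLXIPL in PC3, also took either sign. With 1 library per group, no library could be left out. Depth limits ARRDC4 in PC3 and MLXIPL most.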
